A study of Mus musculus with 24 samples.

Results

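The effect of succinylacetone (SA) was compared between naive mouse embryonic stem cells and cells in transition to the primed state, to ask which transcripts SA altered in both states, in 1 state only, or in opposite directions. For every gene, the effect in naive cells was log2(2iL+SA/2iL), the effect in transition was log2(EpiLC+SA/EpiLC), and the state difference was the effect in transition minus the effect in naive cells. A positive state difference therefore means a higher ratio of SA to control in transition than in naive cells. No gene was picked by its response: all 16067 of 23762 gene symbols with enough counts to test were taken, in 16 of the 24 libraries of the series, 4 in each of 4 groups.

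All libraries came from ES-E14TG2a, 1 line of mouse embryonic stem cells grown in the serum-free medium N2B27. The 2iL group was kept naive on gelatin with mLIF, 3 µM CHIR99021 (a GSK3 inhibitor) and 1 µM PD0325901 (a MEK inhibitor). The 2iL+SA group received 0.5 mM SA in that medium for 48 h. The EpiLC group was switched for 48 h to N2B27 with 12 ng/ml bFGF and 20 ng/ml activin, on plates coated with 15 µg/ml fibronectin, and the EpiLC+SA group had 0.5 mM SA during that switch. State therefore stands for medium, coating and seeding density together, which cannot be told apart. The labels number the libraries 1 to 4 and do not say whether they came from separate cultures, and the p-values rest on the spread among these libraries, some or all of which may be technical.

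SA blocks ALAD, the enzyme that makes porphobilinogen from 5-aminolevulinic acid, and thereby stops the supply of new heme. Heme is the prosthetic group of cytochromes and of several sensors and enzymes, and it releases the repressor BACH1 from the genes it binds. Naive cells held in 2iL express transcription factors such as Tfcp2l1, Tbx3 and Esrrb, and during formative transition they lose these and gain Otx2, Pou3f1, Fgf5 and the de novo DNA methyltransferases.

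The labelled states matched their markers. The summed level of 21 naive pluripotency genes was 7133 to 7919 CPM (counts per 1000000 of the library's TMM-scaled size) in 2iL and 622 to 2367 in EpiLC, and that of 22 primed and formative genes was 449 to 648 in 2iL and 4472 to 6063 in EpiLC. With SA in transition these sums were 2024 to 2869 and 1749 to 2710 CPM, so the primed sum did not overlap that of EpiLC and the naive sum did. Expression of Alad itself, the enzyme SA acts on, gave a state difference of 0.35 (SE 0.31, adjusted p = 0.47) and a 95% interval of -0.25 to 0.95.

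Depth ran from 1857964 to 9069538 counts per library, and 2 libraries stood apart. Across 7522 genes that reached a mean of 20 CPM in a group, 2iL+SA replicate 3 (1857964 counts) and EpiLC replicate 3 (2883740 counts) deviated from the other libraries of their groups by a root mean square of 0.955 and 0.933 on the log2 scale, against 0.233 to 0.537 for the remaining 14 libraries. Their deviations correlated with each other across genes at r = 0.803. A gene raised in both of these libraries gains a higher effect in naive cells and a lower effect in transition, so the classes below are given with and without them. Markers of another cell type, primitive endoderm (12 of 15 listed genes tested), had higher sums with SA in both states. In transition 3 members rose and 1 fell, against 12.1% and 15.8% of all genes, and none was called in naive cells. Their sum was 498 to 617 CPM in 2iL, 706 to 879 in 2iL+SA without replicate 3 and 2664 in replicate 3, and 283 to 449 in EpiLC against 496 to 837 in EpiLC+SA, without overlap in either state. The member with the highest level in 2iL, 2iL+SA and EpiLC+SA was Sparc, a matrix glycoprotein that many cells make (379 to 503 CPM in 2iL, 588.95 to 2571 in 2iL+SA, 113 to 336 in EpiLC and 323 to 700.5 in EpiLC+SA). The 4 transcription factors tested in the list were at most 12.1 CPM in every library. The sum of 8 fibroblast markers did not overlap in transition, 242 to 359 CPM in EpiLC and 420 to 535 in EpiLC+SA, and did in naive cells. The part of these markers in the results was not tested. The part that the deviation of the 2 libraries plays in each gene was measured by leaving them out, and its origin was not tested.

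SA moved far more genes in transition than in naive cells. At a Benjamini-Hochberg adjusted p under 0.05 (edgeR's quasi-likelihood test), 4477 genes changed in transition, 27.9% of those tested, of which 1942 were higher and 2535 lower. In naive cells 8 changed, 0.0498% of those tested, while 2048 genes (12.7%) had an unadjusted p under 0.05, of which 1151 (7.16%) were higher and 897 (5.58%) lower, and DESeq2 called 306. The median absolute effect was 0.60 in transition and 0.31 in naive cells, with median standard errors of 0.35 and 0.34. The state difference itself was called for 2304 genes (14.3%), of which 847 (5.27%) were higher in transition and 1457 (9.07%) were lower. Without the 2 libraries 2069 were called, 1627 of them among the 2304, and all 2304 kept their sign. Both fits use the same remaining libraries, so they are not independent.

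The effects in the 2 states had little correlation. Across genes Pearson's r was 0.05 and Spearman's rho 0.04 over 16067 genes, which are not independent replicates, and r was 0.10 without the 2 libraries. In naive cells the median absolute effect, 0.31, was below the median standard error of 0.34. Such error lowers a correlation, so a low r does not show that the effects were unrelated. Of the 1942 genes that rose in transition, 57.0% also had a positive effect in naive cells, against 52.96% of all genes. At an unadjusted p under 0.05, 192 (9.89%) were higher there and 67 (3.45%) lower, against 7.16% and 5.58% of all genes. Of the 2535 that fell in transition, 51.5% had a negative effect in naive cells, where 52.96% of all genes had a positive one. At that threshold 204 (8.05%) were lower there and 155 (6.11%) higher, against 5.58% and 7.16% of all genes. Passing in 1 state and not in the other does not show a difference between them. The state difference itself had an unadjusted p under 0.05 in 67.1% of the genes that rose and 74.2% of those that fell, against 29.3% of all genes. Because these genes were picked by the effect in transition, which is part of the state difference, an excess over all genes was partly set in advance.

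**Figure D1:**
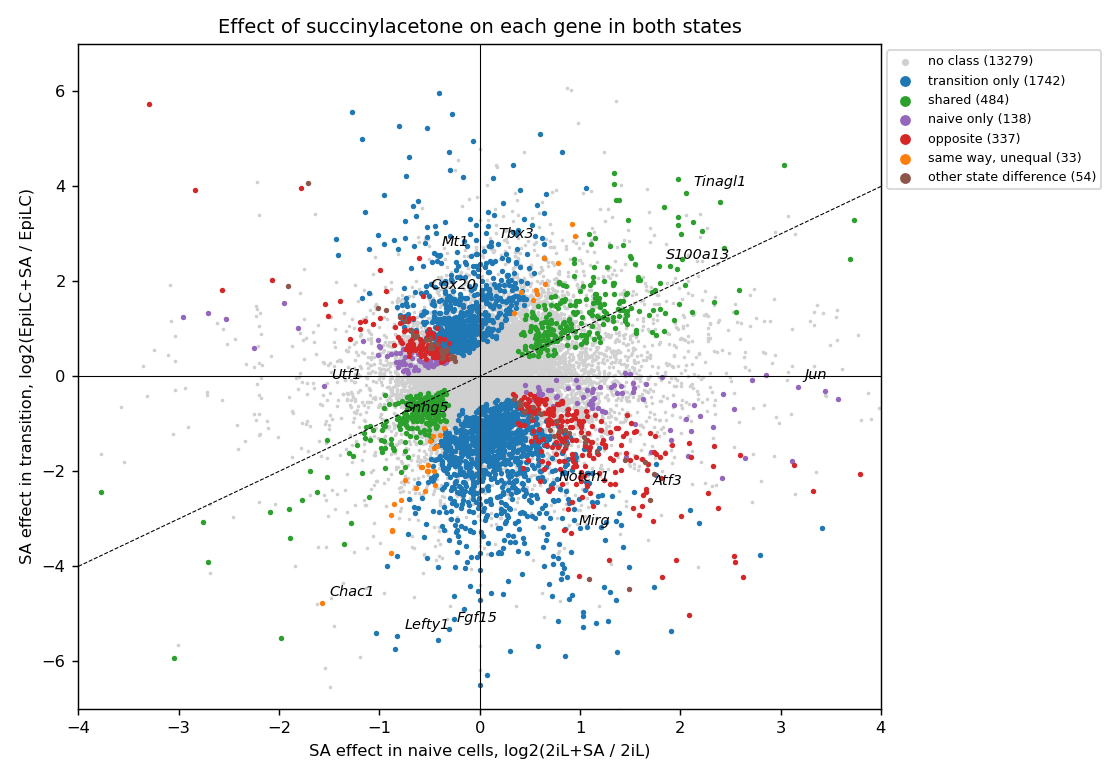
Effect of SA in naive cells (horizontal axis, log2 of 2iL+SA over 2iL) against its effect in transition (vertical axis, log2 of EpiLC+SA over EpiLC), 1 point per gene, coloured by class, with 20 genes outside the axes and a dashed line where both effects are equal. The 1742 transition only genes form a tall column around a naive effect of 0, the 484 shared genes lie in the upper right and lower left, and the 337 opposite genes lie in the other 2 quadrants.

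The genes were sorted into classes. Among the 2304 with a called state difference, 1742 (10.8% of genes tested) changed in transition at an adjusted p under 0.05 and had an unadjusted p of 0.05 or more in naive cells, here named transition only. Another 337 (2.1%) had effects of opposite sign at an unadjusted p under 0.05 in both states, 138 (0.859%) had an unadjusted p under 0.05 in naive cells only, 33 (0.205%) moved the same way by unequal amounts, and 54 (0.336%) fell in none of these. Where the state difference was not called, 484 genes (3.01%) were shared, with a mean effect over both states at an adjusted p under 0.05 (true of 16.7% of genes) and the same sign at an unadjusted p under 0.05 in each state. By the stricter rule of an adjusted p under 0.05 in both states 1 gene remained (0.00622%), Snhg5. The naive share of the opposite, naive only and shared classes therefore rests on unadjusted p-values, which 12.7% of all genes reach.

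**Figure D2:**
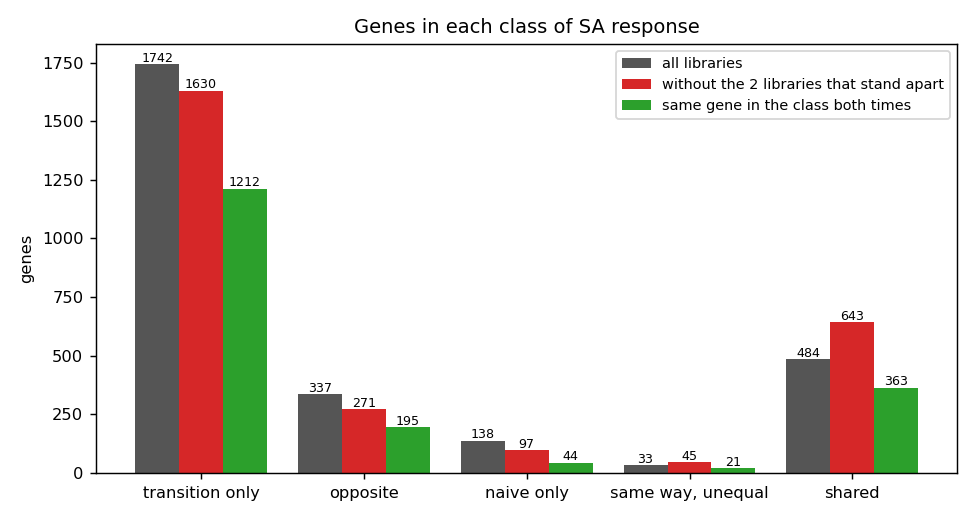
Number of genes in each class (vertical axis, genes) with all libraries, without 2iL+SA replicate 3 and EpiLC replicate 3, and the number in the class both times. Of 1742 transition only genes 1212 were in the class both times, of 337 opposite genes 195, and of 138 naive only genes 44.

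The opposite and naive only classes depended on the 2 libraries more than the transition only class did in these counts. Of the 337 opposite genes, 195 stayed opposite without the 2 libraries, 57 became transition only, 20 naive only, and 58 fell into no class. Of 109 opposite genes at 20 CPM that were lower in transition, 78 were above the other libraries of their group in both 2iL+SA replicate 3 and EpiLC replicate 3, against 35.2% of all genes at that level. These libraries were in the fit that set the class, and high values in both favour it, so that excess was partly set in advance. Shared genes numbered 643 without the 2 libraries, of which 363 were among the 484.

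A minority of the genes with a called state difference differed more than 2-fold in level between 2iL and EpiLC. For the 1457 with a lower state difference, the median level was 17 CPM in 2iL, 19.5 in 2iL+SA, 22.7 in EpiLC and 8.25 in EpiLC+SA. Their 2iL mean was more than 2-fold below the EpiLC mean in 418 (28.7%, against 17.3% of all genes) and more than 2-fold above it in 57. For the 847 with a higher state difference, the medians were 45.8, 39.7, 26.8 and 58.1 CPM in the same order. Their 2iL mean was more than 2-fold above that of EpiLC in 280 (33.1%, against 13.9% of all genes) and more than 2-fold below it in 9. Of these 847, 708 (83.6%) were called in transition at an adjusted p under 0.05, and of the 1457, 1289 (88.5%), against 27.9% of all genes. The state difference contains the effect in transition. It also contains the 2iL level with a positive sign and the EpiLC level with a negative sign. These excesses over all genes, in level and in calls, were therefore partly set by how the genes were picked.

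Most primed and formative genes fell with SA in transition. Of 22 in the list, 12 had a called lower state difference, against 9.07% of all genes, and none a higher one. In transition 18 fell, against 15.8% of all genes, and none changed in naive cells at an adjusted p under 0.05. Their median effect was -1.63 in transition and -0.07 in naive cells, beside 0.00 and 0.03 over all genes, and the median state difference was -2.13. Pou3f1, a POU factor of the formative epiblast, stood at 3.96, 4.42, 1.68 and 4.54 CPM in 2iL, 3.09, 2.22, 5.50 and 3.86 in 2iL+SA, 475, 732, 231 and 301 in EpiLC and 24.4, 53.4, 45.6 and 22.4 in EpiLC+SA. SA and control did not overlap in transition, while in naive cells all 8 libraries were under 6 CPM, and the state difference was -3.45 (SE 0.72, adjusted p = 0.00277). Otx2, a homeobox factor that directs the primed enhancer landscape, was at 18.4, 13.9, 14.6 and 12.8 CPM in 2iL, 11.8, 13.8, 17.1 and 16.7 in 2iL+SA, 592, 389, 891 and 486 in EpiLC and 118, 192, 72.2 and 49.4 in EpiLC+SA, again without overlap in transition and with a state difference of -2.42 (SE 0.47, adjusted p = 0.00148). Zic2, a zinc finger factor of primed cells, fell from 42.1, 49.4, 88.7 and 47.1 to 13.3, 10.2, 11.2 and 8.27 CPM in transition and stood at 9.28, 6.24, 8.09 and 13.8 CPM in 2iL and 8.80, 9.40, 14.3 and 16.7 in 2iL+SA, with a state difference of -2.77 (SE 0.41, adjusted p = 9.13e-05). Grhl2, a grainyhead factor of the epithelial programme, was the opposite gene of this list, with an effect of -1.64 in transition and 1.18 in naive cells, where its level was at most 4.51 CPM.

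The growth factors and methyltransferases of the same programme were less uniform. Fgf15 had 0, 1.04, 0 and 0.673 CPM in 2iL, 0.238, 0.317, 0 and 0.644 in 2iL+SA, 53.9, 48.4, 12.4 and 7.12 in EpiLC and 0.971, 0.851, 0.422 and 0.689 in EpiLC+SA, so naive cells held few or no counts and the fitted state difference of -5.02 (SE 1.5, adjusted p = 0.0267) depends on the small count added before the log. It was not called without 2iL+SA replicate 2 (-5.09) or replicate 4 (-4.57). Fgf5, the classical marker of the early primed epiblast, fell in transition from 37.1, 49.4, 31.4 and 13 to 0.324, 0.851, 0.211 and 0 CPM, but at 0 to 0.336 CPM in the naive libraries its state difference was -5.05 (SE 3.02, adjusted p = 0.269) and was not called. The de novo methyltransferase Dnmt3a was at 46.7, 50.8, 39.8 and 47.8 CPM in 2iL, 52.4, 44.7, 48.4 and 42.3 in 2iL+SA, 1750.3, 932, 1108 and 1303 in EpiLC and 532, 773, 573 and 622 in EpiLC+SA, and the state difference of -1.05 (SE 0.35, adjusted p = 0.0424) lost its call without any 1 of 12 libraries (-0.85 to -1.10), which were all but 2iL+SA replicate 4, EpiLC replicates 2 and 3 and EpiLC+SA replicate 2. With the length trend removed it was -0.65 (adjusted p = 0.259). For Dnmt3b the state difference was -0.45 (SE 0.65, adjusted p = 0.681), with a 95% interval of -1.72 to 0.82.

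Activin and Nodal signalling maintains the primed state, and its list here holds feedback inhibitors and targets. Of 15 genes tested 5 had a lower state difference and none a higher one, and 6 fell in transition, where 9.07% and 15.8% of all genes did. Lefty1, a secreted Nodal antagonist and target, was at 41.1, 20.3, 25.3 and 26.4 CPM in 2iL, 7.37, 25.0, 10.5 and 19.5 in 2iL+SA, 273, 549, 108 and 56.7 in EpiLC and 8.25, 13, 0.844 and 0.344 in EpiLC+SA. Its SA libraries in transition were all below the lowest control, the naive groups overlapped, and the state difference was -4.64 (SE 1.04, adjusted p = 0.00532). Nodal itself fell only in transition, from 78.0, 86.8, 55.7 and 46.0 to 23.9, 5.10, 5.28 and 6.20 CPM, and was at 50.6, 77.2, 58.9 and 78.4 CPM in 2iL and 60.8, 83.9, 38.0 and 101 in 2iL+SA, a state difference of -2.80 (SE 0.51, adjusted p = 7.59e-04). Skil, a SMAD corepressor, moved in opposite directions, -1.77 in transition (adjusted p = 3.03e-06) and 0.48 in naive cells (unadjusted p = 0.0391). Lefty2, the neighbouring paralog of Lefty1, was not called, with a state difference of -0.82 and a 95% interval of -3.19 to 1.55.

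The largest lower state differences at 20 CPM also held genes outside these lists. Zfp608, a zinc finger gene at 0 to 0.546 CPM in 2iL, had -6.18 (SE 1.72, adjusted p = 0.0185) and was -6.07 without the 2 libraries (adjusted p = 0.0557). Efnb2, an ephrin ligand, was at 0.546, 0.65, 1.37 and 1.18 CPM in 2iL, 2.62, 1.9, 6.60 and 2.25 in 2iL+SA, 36.6, 17.1, 67.0 and 27.7 in EpiLC and 6.15, 6.38, 5.49 and 4.13 in EpiLC+SA and was in the opposite class, with -4.34 (SE 0.60, adjusted p = 4.07e-05). Bcl11a, a zinc finger repressor best known for silencing fetal globin, fell in transition from 69.3, 102, 59.2 and 31.5 to 2.91, 10.8, 4.64 and 2.07 CPM and gave -4.61 (SE 0.99, adjusted p = 0.00326), again from naive levels of at most 2.75 CPM. Dos gave -4.97 (SE 0.63, adjusted p = 1.26e-05), the RNA RP23-204I16.3 gave -4.19 (SE 0.52, adjusted p = 1.07e-05), and the long noncoding RNA Gm16046 gave -4.13 (SE 0.83, adjusted p = 0.00193), the last with 76.5 CPM in 2iL+SA replicate 3 against 12.5 to 15.0 in the other libraries of its group. For all of these the SA libraries in transition lay below every control. The rule that picked the largest state differences required such a lack of overlap in the state with the larger effect.

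Genes with a higher state difference included many whose level was lower in EpiLC than in 2iL, which the way they were picked partly set. Among 21 naive pluripotency genes 6 had a higher state difference and none a lower one, against 5.27% and 9.07% of all genes. In transition 10 rose and 1 fell, against 12.1% and 15.8% of all genes. The median effect was 0.99 in transition and -0.30 in naive cells. Tbx3, a T-box factor of naive cells, was at 373, 359.6, 399 and 488 CPM in 2iL, 386, 381, 427 and 558 in 2iL+SA, 16, 6.91, 37.6 and 29.7 in EpiLC and 192, 105, 186 and 117 in EpiLC+SA. All SA libraries of the transition lay between the EpiLC and the 2iL levels, the naive groups overlapped, and the state difference was 2.64 (SE 0.48, adjusted p = 8.40e-04). Tfcp2l1, a core naive factor, went from 41.8, 12.3, 49.2 and 43.0 to 158, 91.2, 238 and 174 CPM in transition and was at 1052, 1043, 960.1 and 842 CPM in 2iL and 1067, 1044, 762 and 866 in 2iL+SA, with 2.24 (SE 0.43, adjusted p = 0.00126). Tcl1, a coactivator of AKT in naive cells, gave 2.88 (SE 0.56, adjusted p = 0.00141), and Tdh, threonine dehydrogenase, gave 2.23 (SE 0.42, adjusted p = 9.59e-04) through opposite effects, 1.23 in transition and -1.0 in naive cells (unadjusted p = 0.00218).

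The state differences of other naive factors were near the threshold or not called. For Esrrb, an orphan nuclear receptor, the state difference was 1.60 (SE 0.50, adjusted p = 0.035), and the call, but not the size, was lost without any 1 of replicates 1, 2 or 4 of 2iL, 1, 2 or 3 of 2iL+SA, or 1 or 4 of EpiLC+SA (1.40 to 1.63). Klf4 was at 473, 449.6, 441 and 447 CPM in 2iL, 354, 345, 1058 and 409 in 2iL+SA, 11.3, 6.69, 132 and 17.2 in EpiLC and 91.3, 18.3, 104 and 62.7 in EpiLC+SA, with 2iL+SA replicate 3 and EpiLC replicate 3 far above their groups, and its state difference of 0.53 was not called (95% interval -1.27 to 2.33). Without these libraries it was 2.80 with an adjusted p of 0.0078. For Klf2 the state difference was 0.20 with a 95% interval of -0.80 to 1.20.

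Metallothioneins bind zinc and copper and are induced through the metal response element, and they were among the largest higher state differences. Mt1 (chr8:94179082-94180327, mm10) was at 1582, 1103, 1013 and 1011 CPM in 2iL, 1016, 951, 732 and 739 in 2iL+SA, 284, 187, 155 and 179.5 in EpiLC and 862, 1401, 1070.1 and 1550.4 in EpiLC+SA. Every EpiLC library lay below every 2iL library, the EpiLC+SA libraries overlapped the 2iL range, and the state difference was 3.05 (SE 0.35, adjusted p = 4.82e-06). Mt2 (chr8:94172664-94173568) was at 2444, 1661, 1491 and 1089 CPM in 2iL, 2049, 1535, 644 and 862 in 2iL+SA, 479, 446, 193 and 262 in EpiLC and 1558, 1885, 1708 and 3034 in EpiLC+SA, with 2.96 (SE 0.49, adjusted p = 3.21e-04). Slc30a2, a vesicular zinc exporter, went from 0.484, 2.81, 0.774 and 1.10 to 5.83, 6.38, 17.3 and 12.2 CPM in transition and was at 35.1, 24.1, 23.8 and 19.5 CPM in 2iL and 34.4, 19.8, 16.5 and 24.3 in 2iL+SA, with 3.10 (SE 0.55, adjusted p = 4.90e-04). These 3 were the called members of an 8-gene metallothionein and zinc list that was made after their values had been seen, and Mt1 and Mt2 are close paralogs whose shared reads, being multi-mapped, were discarded. Their promoters are shown for matches to TGCNCNC, the letters searched here for the metal response element, which the factor MTF1 reads. This pattern allows any base at each N, so not every match need be a site that MTF1 reads. Matches on either strand are in capitals, in RefSeq sequence of build GRCm38.p6, plus strand, chr8:94178839-94179138 and chr8:94172368-94172667, covering 250 bases before and 50 after the start.
Mt1: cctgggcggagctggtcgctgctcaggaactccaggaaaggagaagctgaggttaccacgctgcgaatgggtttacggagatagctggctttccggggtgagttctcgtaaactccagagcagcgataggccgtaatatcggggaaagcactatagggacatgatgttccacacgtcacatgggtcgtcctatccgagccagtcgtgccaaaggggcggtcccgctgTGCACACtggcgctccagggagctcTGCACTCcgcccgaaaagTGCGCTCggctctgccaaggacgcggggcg
Mt2: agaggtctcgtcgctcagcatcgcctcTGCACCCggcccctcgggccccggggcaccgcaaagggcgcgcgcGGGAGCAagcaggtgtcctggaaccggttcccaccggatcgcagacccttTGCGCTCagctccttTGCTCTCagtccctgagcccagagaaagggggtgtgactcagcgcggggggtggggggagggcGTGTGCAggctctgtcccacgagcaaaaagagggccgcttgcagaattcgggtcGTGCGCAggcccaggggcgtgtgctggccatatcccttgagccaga
Mt1 held 3 matches, beginning 23 bases before and 2 and 20 bases after the start. Mt2 held 6, the last beginning 4 bases after the start. Of the 10621 promoters with a sequence 60.4% held at least 1, so a match by itself is common.

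Other large higher state differences were the small nucleolar RNA Gm24916 at 4.37 (SE 0.66, adjusted p = 1.05e-04), Khdc3, a maternal-effect gene of oocytes and early embryos, at 3.99 (SE 0.83, adjusted p = 0.00261), and Mras, a RAS-like GTPase, at 3.46 (SE 0.63, adjusted p = 7.87e-04). Gm525 rose in transition from 11.1, 1.51, 19.0 and 5.40 to 70.1, 40.2, 76.8 and 86.5 CPM and was at most 2.20 CPM in naive cells, with 3.25 (SE 0.82, adjusted p = 0.00985). Gm13580 gave 3.11 (SE 0.42, adjusted p = 3.29e-05) and 2410137M14Rik gave 3.08 (SE 0.68, adjusted p = 0.00363).

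Some genes of the mitochondrial respiratory chain had a higher state difference, and fewer were called once the trend with transcript length was removed. Of 77 nuclear genes of the chain, 20 had a higher state difference, against 5.27% of all genes, and none a lower one, and the medians were 0.57 in transition and -0.17 in naive cells. Atp5h, a subunit of ATP synthase, was at 112, 108, 107 and 100.1 CPM in 2iL, 106, 95, 40.7 and 86.6 in 2iL+SA, 80.0, 56.3, 28.6 and 62.7 in EpiLC and 134, 129.5, 119 and 145 in EpiLC+SA, without overlap in transition, and gave 1.57 (SE 0.37, adjusted p = 0.00568). Ndufb4 and Ndufa3, complex I subunits, gave 1.15 (SE 0.28, adjusted p = 0.00688) and 0.82 (SE 0.21, adjusted p = 0.00921). With the 2 libraries left out and the trend with length removed, 9 of 77 were called higher and 1 lower, with medians of 0.34 and -0.16. Over all 15419 genes then tested, 805 were called higher and 965 lower. Ndufa3 and Atp5j2 (ATP synthase) lost their calls when the trend alone was removed (0.46 and 0.81). For 81 cytosolic ribosomal protein genes, 6 were called higher and none lower, a share near that over all genes (5.27%), and under the same pair of corrections 1 was called in each direction. Of 21 enzymes of the TCA cycle 4 had a higher state difference, against 5.27% of all genes, and none a lower one. Their medians were 0.58 in transition and -0.23 in naive cells.

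**Figure D3:**
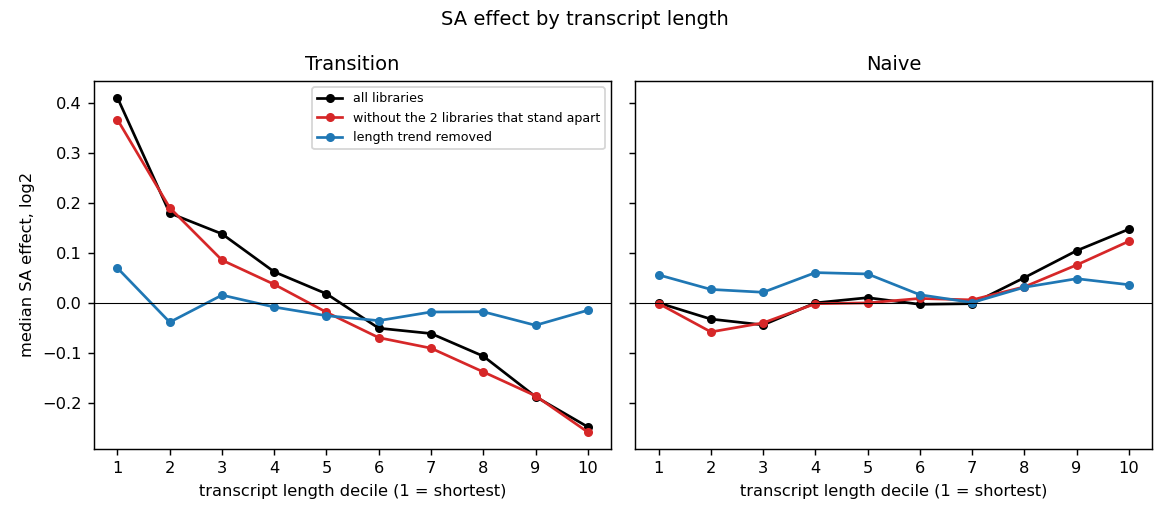
Median effect of SA (vertical axis, log2) over the genes of each decile of transcript length (horizontal axis, 1 the shortest), in transition on the left and in naive cells on the right, with all libraries, without the 2 libraries, and with the length trend of each library removed. In transition the median falls from 0.41 to -0.25 and in naive cells it goes from 0.00 to 0.15, while the corrected lines stay near 0.

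The trend with length had opposite slopes in the 2 states. In the shortest decile of genes (median 477 bases) the median effect was 0.41 in transition and 0.00 in naive cells, and in the longest decile (median 7992 bases) it was -0.25 and 0.15. Opposite genes that were lower in transition had a median length of 4990 bases and those that were higher 2424, beside 3038 over all 15113 genes with a length. Once the trend was removed, 1955 state differences were called, 1684 of them among the 2175 original calls that had a length, and the opposite class held 289 genes, 233 of them from the original 318. What produced the trend was not tested.

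Enzymes that break down branched-chain amino acids, a route to propionyl-CoA and succinyl-CoA, held members with a higher state difference with and without these corrections. Of 29 tested, 9 had a higher state difference, against 5.27% of all genes, and none a lower one. In transition 15 rose and 1 fell, against 12.1% and 15.8% of all genes. The medians were 0.72 in transition and 0.09 in naive cells. With both corrections 11 of the 30 then tested were called higher and none lower. Over all 15419 genes then tested these counts were 805 and 965. Dbt, the E2 subunit of the branched-chain ketoacid dehydrogenase, was at 33.8, 28.1, 35.9 and 30.1 CPM in 2iL, 44.4, 30.8, 35.8 and 35.4 in 2iL+SA, 27.6, 22.5, 26.3 and 24.9 in EpiLC and 68.1, 60.0, 65.7 and 61.8 in EpiLC+SA. All transition libraries with SA lay above every control, naive libraries overlapped, and the state difference was 1.14 (SE 0.22, adjusted p = 0.00109). Pccb, a subunit of propionyl-CoA carboxylase, gave 1.78 (SE 0.34, adjusted p = 9.61e-04), Mut, the mutase that forms succinyl-CoA, gave 1.26 (SE 0.31, adjusted p = 0.00863), and Hsd17b10, which acts in isoleucine breakdown, gave 1.21 (SE 0.25, adjusted p = 0.00228).

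**Figure D4:**
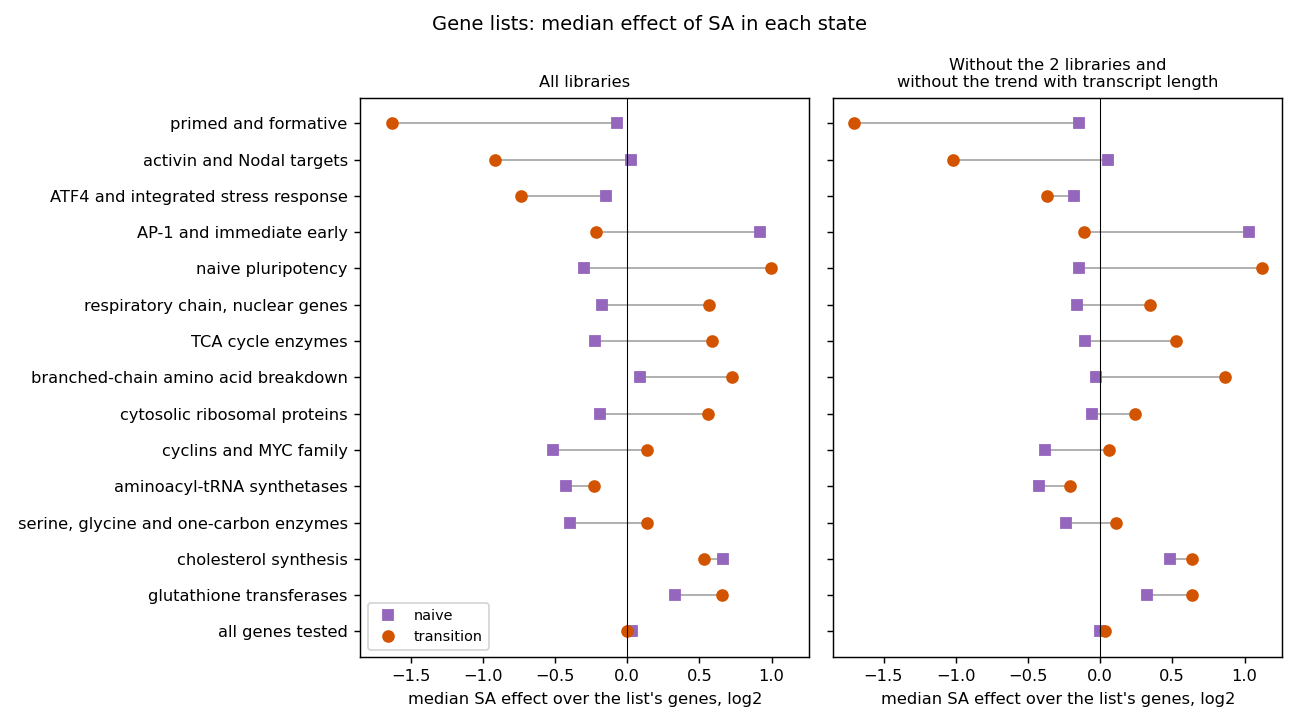
Median effect of SA over the genes of each list (horizontal axis, log2) in naive cells (squares) and in transition (circles), with all libraries on the left and without the 2 libraries and the length trend on the right. Primed and formative genes are at -1.63 in transition and -0.07 in naive cells, AP-1 genes at -0.21 and 0.92, and cholesterol synthesis genes at 0.53 and 0.66.

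ATF4 is the transcription factor of the integrated stress response, which the heme-regulated kinase HRI can start, and several of its targets had lower state differences. Of 26 tested, 9 had a lower state difference and none a higher one, against 9.07% and 5.27% of all genes. In transition 12 fell, against 15.8% of all genes, and the medians were -0.74 in transition and -0.15 in naive cells. Without the 2 libraries 6 were called lower, against 1355 of all 16404 genes then tested, and the medians were -0.45 and -0.16. Chac1, which degrades glutathione, was at 37.7, 17.8, 20.6 and 6.90 CPM in 2iL, 12.5, 6.66, 0.55 and 5.64 in 2iL+SA, 54.5, 36.1, 55.4 and 87.5 in EpiLC and 3.56, 1.06, 0.844 and 2.76 in EpiLC+SA. It was lower with SA in both states, without overlap in transition and with overlap in naive cells, so it belonged to the same-way class, with effects of -4.77 (adjusted p = 3.87e-06) and -1.57 (unadjusted p = 0.00541) and a state difference of -3.20 (SE 0.77, adjusted p = 0.00778). Stc2, a secreted glycoprotein, gave -3.31 (SE 0.69, adjusted p = 0.0023), Sesn2, a leucine sensor that restrains mTORC1, gave -1.94 (SE 0.33, adjusted p = 4.06e-04), and Vldlr, a lipoprotein receptor, gave -2.93 (SE 0.70, adjusted p = 0.00633).

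The Chac1 promoter is shown for its match to the core of the element that ATF4 and its partners bind, TGATGNAA, in capitals (GRCm38.p6, RefSeq, chr2:119350992-119351291, plus strand, the match lying on the other strand).
Chac1: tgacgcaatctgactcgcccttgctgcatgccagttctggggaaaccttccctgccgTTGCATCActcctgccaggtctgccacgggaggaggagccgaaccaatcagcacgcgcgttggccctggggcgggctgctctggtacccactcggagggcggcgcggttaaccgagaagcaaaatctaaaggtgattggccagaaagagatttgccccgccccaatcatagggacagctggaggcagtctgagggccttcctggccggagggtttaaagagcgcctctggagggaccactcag
The match begins 193 bases before the start. Such a match was present in 2.22% of all promoters and in 1.36% of those of transition only genes that were lower, and none was found in these windows of Sesn2 and Stc2.

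Targets of NRF2 and BACH1, the activator and the heme-sensitive repressor of antioxidant genes, split. Of 23 tested, 3 had a higher and 5 a lower state difference, against 5.27% and 9.07% of all genes. The medians were 0.14 in transition and 0.01 in naive cells. The members described below, Keap1, Bach1, Txnrd1 and Srxn1, were all on the lower side and do not stand for the whole list. Without the 2 libraries none of the 24 then tested had a higher state difference and 5 had a lower one. Over all 16404 genes then tested these counts were 714 and 1355. Keap1, the inhibitor of NRF2, went from 38.4, 36.3, 40.3 and 36.0 to 18.6, 9.99, 8.23 and 12.2 CPM in transition and was at 129.7, 138, 134 and 133 CPM in 2iL and 133, 134, 106 and 145 in 2iL+SA, with -1.57 (SE 0.27, adjusted p = 3.61e-04). Bach1 gave -2.39 (SE 0.47, adjusted p = 0.00147), with 124 CPM in 2iL+SA replicate 3, and Txnrd1, thioredoxin reductase, gave -1.74 (SE 0.37, adjusted p = 0.0031). Srxn1, which repairs overoxidised peroxiredoxins, was at 48.5, 54.2, 46.7 and 57.4 CPM in 2iL, 73.2, 66.8, 58.9 and 78.9 in 2iL+SA, 56.8, 45.5, 31.7 and 41.1 in EpiLC and 15.5, 11.3, 8.44 and 10.7 in EpiLC+SA. SA and control did not overlap in either state, with effects of -1.93 in transition and 0.43 in naive cells (unadjusted p = 0.0313) and a state difference of -2.36 (SE 0.28, adjusted p = 5.02e-06).

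The promoter of Srxn1 is shown for its AP-1 motif TGANTCA, in capitals (GRCm38.p6, RefSeq, chr2:152105274-152105573, plus strand).
Srxn1: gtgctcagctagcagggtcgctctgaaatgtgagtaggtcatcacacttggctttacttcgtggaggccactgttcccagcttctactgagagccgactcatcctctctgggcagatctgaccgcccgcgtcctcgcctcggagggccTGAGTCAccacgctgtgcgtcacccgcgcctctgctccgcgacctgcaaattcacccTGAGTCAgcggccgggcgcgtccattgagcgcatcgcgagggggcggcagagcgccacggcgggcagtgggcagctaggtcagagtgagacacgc
It held 2 matches, beginning 102 and 45 bases before the start, where 4.75% of all promoters held 1 or more. The share was 4.14% among opposite genes that were lower in transition and 7.41% among those that were higher, and none was found in the windows of Jun and Atf3.

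The clearest opposite gene was Mirg, a long noncoding RNA of the imprinted Dlk1-Dio3 cluster that hosts many microRNAs (chr12:109729764-109749460, plus strand). It was at 119, 87.5, 96.3 and 107 CPM in 2iL, 206, 186, 236 and 144 in 2iL+SA, 97.4, 105, 153 and 96.1 in EpiLC and 12.6, 13.2, 11.4 and 8.78 in EpiLC+SA. In naive cells every SA library lay above every control, and in transition every SA library lay below every control. The effects were 0.91 in naive cells (unadjusted p = 6.59e-04, adjusted p = 0.111) and -3.29 in transition (adjusted p = 3.72e-09). Its state difference of -4.20 (SE 0.35, adjusted p = 6.44e-08) was -3.94 (SE 0.34) without the 2 libraries. Its cluster neighbour Meg3 (chr12:109541001-109571726) was at 1646, 945, 1043 and 969.6 CPM in 2iL, 2919, 2001, 2589.9 and 1522 in 2iL+SA, 1435, 1756, 2131 and 1554 in EpiLC and 659, 1215, 1734 and 1026 in EpiLC+SA, in the naive only class with -1.54 (SE 0.43, adjusted p = 0.0182), and was not called without the 2 libraries (-1.37, adjusted p = 0.0696) or with the length trend removed (-1.08). Rian, between them, gave -0.75 (SE 0.37, adjusted p = 0.178). The 3 RNAs were thus all higher with SA in naive cells at an unadjusted p under 0.05 (Meg3 0.97, Rian 0.74), and only Mirg fell in transition at an adjusted p under 0.05. Whether counting used strand is not given in the sources used here, so reads of overlapping transcripts in this cluster cannot be told apart.

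Notch1, a receptor whose cleaved domain acts in the nucleus, was at 23.6, 19.1, 22.7 and 21.0 CPM in 2iL, 36.4, 44.7, 29.7 and 30.8 in 2iL+SA, 22.4, 33.9, 22.5 and 19.8 in EpiLC and 7.61, 2.55, 5.91 and 2.93 in EpiLC+SA. SA and control libraries did not overlap in either state. The effects were 0.72 in naive cells (unadjusted p = 0.00956) and -2.36 in transition, with a state difference of -3.08 (SE 0.39, adjusted p = 1.07e-05). Zfhx3, a large homeodomain and zinc finger protein, gave 0.88 and -2.80 with -3.67 (SE 0.38, adjusted p = 1.22e-06), and Trim56, a ubiquitin ligase, gave 0.96 and -1.89 with -2.85 (SE 0.34, adjusted p = 6.52e-06). Zswim6 (-2.75), Marveld1 (-3.87) and the noncoding RNA B230354K17Rik (-3.10) had the same pattern. Plekhm1, which acts in lysosome fusion, had -4.07 (SE 0.50, adjusted p = 9.56e-06), but it was transition only without the 2 libraries, which held 109 and 77 CPM against at most 48.4 and 31.0 in the rest of their groups.

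Cox20, an assembly factor of cytochrome c oxidase, led the opposite genes that were higher in transition. It was at 34.7, 37.4, 39.98 and 44.7 CPM in 2iL, 28.1, 27.7, 17.1 and 31.9 in 2iL+SA, 18.9, 14, 10.8 and 16.4 in EpiLC and 45.6, 50.0, 57.0 and 43.7 in EpiLC+SA. SA and control did not overlap in either state, being lower with SA in naive cells (-0.56, unadjusted p = 0.00878) and higher in transition (1.69), with a state difference of 2.25 (SE 0.28, adjusted p = 1.18e-05). In all, 113 opposite genes were higher and 224 lower in transition. Among the 195 that stayed opposite without the 2 libraries, 64 were higher and 131 lower, and 46 and 85 of these were also opposite after the length trend was removed, with and without the 2 libraries.

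Genes of the AP-1 and immediate early response, which signalling kinases induce within minutes, had mostly positive effects of SA in naive cells, where only Jun passed at an adjusted p under 0.05. Of 13 tested, 8 had a positive naive effect at an unadjusted p under 0.05, against 7.16% of all genes, and none a negative one. The median naive effect was 0.92 beside 0.03 over all genes, and in transition it was -0.21. The state difference was called lower for 5 and higher for 1, against 9.07% and 5.27% of all genes. Jun (chr4:95049034-95052222), the founding AP-1 subunit, was at 5.87, 4.55, 4.88 and 6.73 CPM in 2iL, 56.6, 48.1, 51.2 and 42.5 in 2iL+SA, 4.03, 9.28, 13.9 and 5.89 in EpiLC and 10.7, 3.83, 5.07 and 7.41 in EpiLC+SA. In naive cells the SA libraries were between 42.5 and 56.6 CPM and the controls between 4.55 and 6.73, while in transition the groups overlapped. It was the naive gene with the smallest p, at 3.17 (adjusted p = 0.0211), against -0.21 in transition, and the state difference was -3.38 (SE 0.70, adjusted p = 0.00254).

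The partner subunits differed in how far they rested on the 2 libraries. Jund was at 103, 76.1, 71.6 and 70.1 CPM in 2iL, 296, 215, 951 and 169 in 2iL+SA, 86.3, 127, 424 and 123 in EpiLC and 62.8, 39.8, 90.4 and 79.0 in EpiLC+SA, with -3.81 (SE 0.73, adjusted p = 0.00156), and without them it was -2.24 (adjusted p = 0.00527). Atf3, a stress-induced member, was at 5.87, 2.08, 3.81 and 1.01 CPM in 2iL, 17.5, 7.08, 6.60 and 8.69 in 2iL+SA, 4.03, 2.59, 3.10 and 6.38 in EpiLC and 0.647, 0.851, 0.844 and 0.689 in EpiLC+SA and opposite, with -4.09 (SE 0.81, adjusted p = 0.0015), and Fosl2, at most 2.02 CPM, gave -4.20 (SE 1.05, adjusted p = 0.00908).

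**Figure D5:**
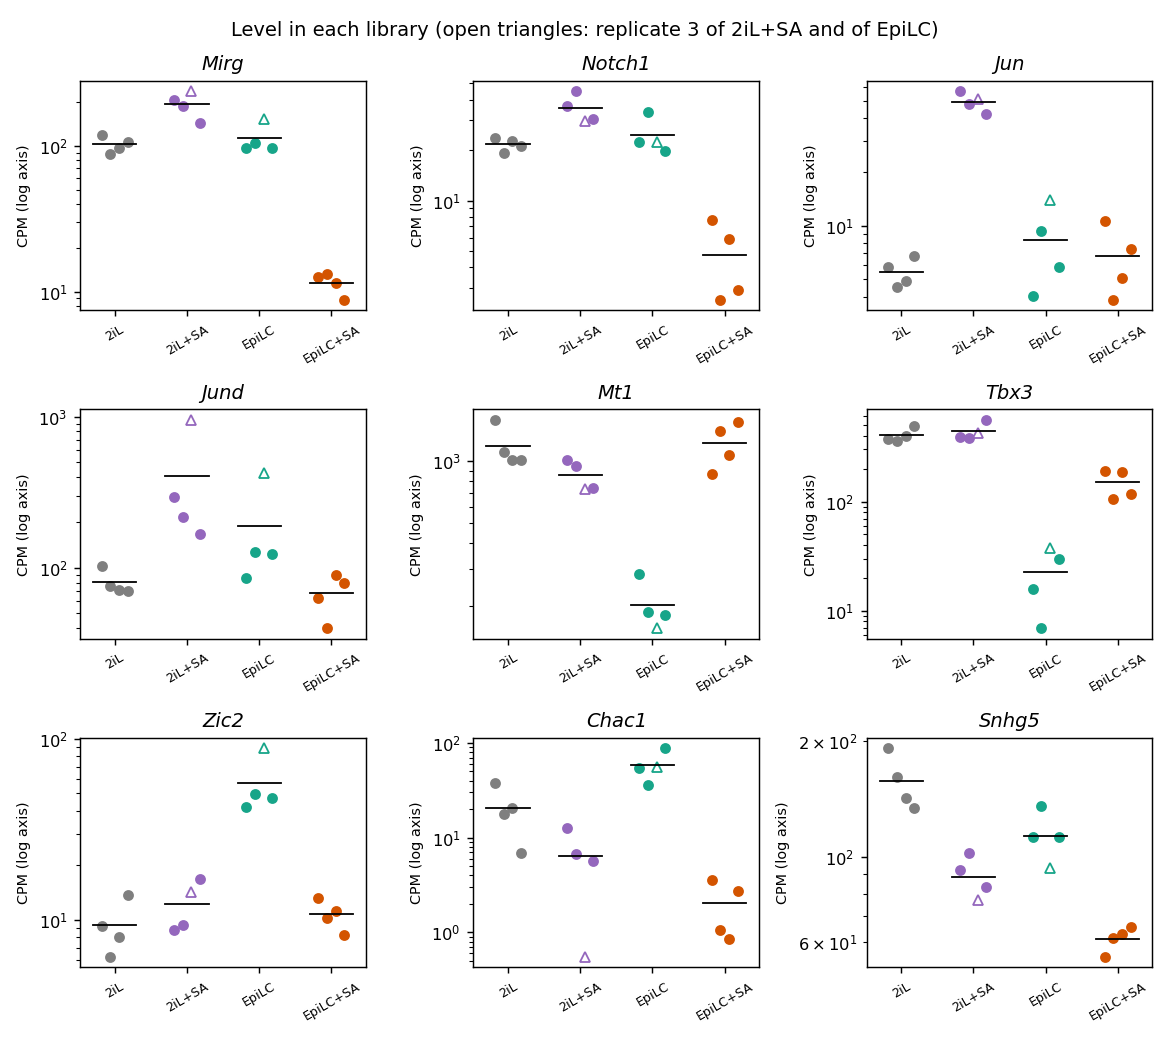
Level of 9 genes in each of the 16 libraries (vertical axes, CPM on a log scale), with the mean of each group as a line and open triangles for 2iL+SA replicate 3 and EpiLC replicate 3. Mirg is higher with SA in naive cells and lower in transition, Jun is at 42.5 to 56.6 CPM in 2iL+SA, and Snhg5 is lower with SA in both states.

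Besides Jun, 7 genes were called in naive cells, and their state differences varied. Mbnl2, a splicing regulator, was at 64.0, 53.6, 58.0 and 43.1 CPM in 2iL, 160.1, 124, 307 and 104 in 2iL+SA, 68.9, 93.9, 168 and 87.6 in EpiLC and 95.5, 77, 119 and 81.3 in EpiLC+SA, called with -1.82 (SE 0.42, adjusted p = 0.00529). Without the 2 libraries it was -1.10 (adjusted p = 0.0212), and -0.85 (adjusted p = 0.0752) once the length trend was removed as well. Utf1, a chromatin factor of pluripotent cells, was at 48.6, 32.8, 36.3 and 77.9 CPM in 2iL, 12.8, 10.2, 18.2 and 26.1 in 2iL+SA, 521, 547, 667 and 566 in EpiLC and 475, 592, 402 and 520.1 in EpiLC+SA, lower in every naive SA library than in every naive control. Its state difference of 1.34 (SE 0.41, adjusted p = 0.0279) lost its call without replicate 4 of 2iL, 1 or 2 of 2iL+SA, or 2 or 4 of EpiLC+SA (1.03 to 1.31), and with the length trend removed (1.03). Snhg5 and Rnaseh2a, a subunit of RNase H2, were shared, the latter with -0.94 in naive cells and -0.38 in transition. Oplah, 5-oxoprolinase of the glutathione cycle, Gm13119 and Nkx1-2 had no called state difference, at -1.22, -1.25 and 0.99.

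Cell cycle genes had a lower median effect in naive cells than in transition. Of 22 cyclin, MYC family and cell cycle genes, 9 had a negative naive effect at an unadjusted p under 0.05 and 1 a positive one. Over all genes these shares were 5.58% and 7.16%. The median was -0.51 in naive cells and 0.13 in transition. The state difference was called higher for 4 and lower for 1, against 5.27% and 9.07% of all genes. Mcm2, a subunit of the replicative helicase, was at 198, 237, 233 and 229.6 CPM in 2iL, 118, 151, 78.7 and 155 in 2iL+SA, 250.4, 202, 114 and 226 in EpiLC and 209, 276, 221 and 278 in EpiLC+SA, where naive SA and control did not overlap, and gave 1.14 (SE 0.32, adjusted p = 0.0183). Of the 6 MCM helicase subunits, a list made after their values were seen, 3 had a higher state difference, against 5.27% of all genes. A negative naive effect at an unadjusted p under 0.05 was found for 4, against 5.58% of all genes. Ccnd3, cyclin D3, gave 1.73 (SE 0.33, adjusted p = 9.33e-04) and Cdkn2a, which encodes the p16 and p19 inhibitors, gave 1.70 (SE 0.45, adjusted p = 0.0128), both through a rise in transition. Mycn went the other way: at 44.6, 31.7, 35.4 and 40.9 CPM in 2iL, 20.1, 25.8, 6.60 and 27.2 in 2iL+SA, 80.6, 78.6, 51.1 and 44.5 in EpiLC and 9.39, 2.55, 4.22 and 2.76 in EpiLC+SA it was lower with SA in both states and more so in transition, with -2.84 (SE 0.52, adjusted p = 8.43e-04).

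Shared genes moved the same way in both states, 255 of them higher and 229 lower. That their state difference was not called does not show equal effects. Snhg5, a small nucleolar RNA host gene, was at 191, 161, 142 and 134 CPM in 2iL, 92.0, 102, 77 and 83.1 in 2iL+SA, 112, 135, 93.3 and 112 in EpiLC and 54.7, 61.2, 62.7 and 65.6 in EpiLC+SA. SA and control did not overlap in either state. The effects were -0.82 (adjusted p = 0.0447) in naive cells and -0.89 (adjusted p = 1.43e-04) in transition, and the 95% interval of the state difference, -0.50 to 0.36, bounds how far they could differ. Tinagl1, a matricellular protein, was at 9.14, 8.71, 7.17 and 6.73 CPM in 2iL, 48.6, 46.3, 9.90 and 24.6 in 2iL+SA, 0.806, 0.648, 0.387 and 1.10 in EpiLC and 14.6, 5.10, 15.0 and 13.3 in EpiLC+SA, with effects of 2.05 and 3.86. S100a13, a calcium-binding protein that takes part in FGF1 release, was at 45.4, 64.5, 84.4 and 60.2 CPM in 2iL and 220.1, 219, 197 and 241 in 2iL+SA and at 2.42, 1.51, 2.71 and 3.44 CPM in EpiLC and 10.7, 10.6, 14.4 and 16 in EpiLC+SA. It had no overlap in either state, with effects of 1.79 and 2.32 although its level differed widely between states.

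Further shared genes that rose were Agfg2, Cd55 (a complement inhibitor), Smpd1 (acid sphingomyelinase), Rab11fip1 (a recycling endosome adaptor), Hist3h2a, Map1lc3a (the autophagy protein LC3A), Gng12 (a G protein subunit) and Lactb (a mitochondrial protease-like protein). Their naive effects ran from 0.53 for Rab11fip1 to 1.33 for Hist3h2a, and their effects in transition from 0.95 for Map1lc3a to 1.92 for Cd55. Shared genes that fell were Pspc1 (a paraspeckle protein), Mcm10 (a replication initiation factor), Dnaja1 (an HSP40 cochaperone), Plk1 (a mitotic kinase), Ddx56 (a nucleolar helicase), Pdzd4, Sulf1 (a heparan sulfatase), 2310033P09Rik and D130058E05Rik. Their naive effects ran from -1.30 for Pdzd4 to -0.63 for Mcm10, and their effects in transition from -2.0 for D130058E05Rik to -1.01 for Ddx56. These genes were chosen by the smallest adjusted p of the mean effect, so the size of the effects is a description.

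Cholesterol synthesis genes had mostly positive effects of SA in both states. Of 23 genes, 11 rose and 1 fell in transition, against 12.1% and 15.8% of all genes. At an unadjusted p under 0.05, 15 had a positive naive effect, against 7.16% of all genes, and none a negative one. The shared class held 8, against 3.01% of all genes. The medians were 0.53 in transition and 0.66 in naive cells, and the median state difference of 0.03 was -0.15 without the 2 libraries. Hmgcs1, which makes HMG-CoA, was at 407, 346, 364 and 409 CPM in 2iL, 732, 760.2, 429 and 630.0 in 2iL+SA, 413, 289, 203 and 543 in EpiLC and 837, 455, 517 and 671 in EpiLC+SA, with effects of 0.74 and 0.77 and a 95% interval of the state difference of -0.66 to 0.72. Stard4, a sterol carrier, had 0.46 and 1.29. Srebf2, the factor that drives the route, was naive only with -0.80 (SE 0.25, adjusted p = 0.0301). The call for Srebf2 was lost without replicate 2 or 3 of 2iL, 3 of EpiLC, or 2 or 4 of EpiLC+SA (-0.65 to -0.78), and the value was -0.59 without the 2 libraries and -0.36 (adjusted p = 0.258) with the length trend removed as well. Ebp, a sterol isomerase, was transition only with 1.08 (SE 0.33, adjusted p = 0.0267), and lost its call without replicate 4 of 2iL, 1 or 2 of 2iL+SA, 2 or 4 of EpiLC, or 1 of EpiLC+SA (0.91 to 1.00), and with the length trend removed (0.83).

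Glutathione transferases, which conjugate glutathione to electrophiles, leaned the same way in both states. Of 20 tested, 6 rose in transition, against 12.1% of all genes, and none fell. At an unadjusted p under 0.05, 4 had a positive and 1 a negative naive effect, against 7.16% and 5.58% of all genes. A higher state difference was called for 3, against 5.27% of all genes. Gstm1 was at 59.2, 54.7, 47.9 and 49.3 CPM in 2iL, 85.0, 82.1, 55.6 and 56.5 in 2iL+SA, 25.8, 25.5, 24.4 and 36.6 in EpiLC and 88.5, 109, 94.2 and 97.3 in EpiLC+SA, with effects of 0.41 in naive cells (unadjusted p = 0.035) and 1.78 in transition and 1.37 (SE 0.26, adjusted p = 0.00112). Gstm7 was shared, with 0.94 and 2.47. Gsta3 had effects of 3.14 in transition (adjusted p = 3.54e-04) and -0.52 in naive cells (unadjusted p = 0.198), with 3.66 (SE 0.72, adjusted p = 0.00149). Gsta4 gave 0.73 (SE 0.22, adjusted p = 0.0247), and this call was lost without replicate 2 of 2iL, 2 of 2iL+SA, 4 of EpiLC or 2 of EpiLC+SA (0.61 to 0.69), and with the length trend removed (0.37, adjusted p = 0.276). These families hold similar copies, so reads shared between members were discarded and their levels are uncertain.

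Aminoacyl-tRNA synthetases and enzymes of serine, glycine and one-carbon metabolism, which both hold ATF4 targets, leaned lower with SA in naive cells at unadjusted p-values. Of 22 synthetases 11 had a negative naive effect at an unadjusted p under 0.05, against 5.58% of all genes, and none a positive one. Of these 22, 3 had a higher and 1 a lower state difference and 3 were shared, with medians of -0.23 in transition and -0.42 in naive cells. Of 21 enzymes of the other list 7 had a negative naive effect at that threshold and none a positive one. In that list 3 had a higher and 1 a lower state difference and 4 were shared, with medians of 0.14 and -0.39. Over all genes the shares with a higher state difference, a lower one and a shared effect were 5.27%, 9.07% and 3.01%.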

How the data were processed

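RNA of 24 libraries was sequenced by the study as QuantSeq 3' single-end reads. Per the labels and the study's methods, the authors trimmed reads with fastq-mcf, aligned them with HISAT2 to mm10, discarded multi-mapped reads and counted genes with HTSeq (the submitters' notes also list FastQC 0.11.7, SAMtools 1.5 and HTSeq 2.7.14); annotation and strand setting are not given in the sources used here. The values used are the raw gene counts the authors deposited, 1857964 to 9069538 per compared library, whose precision is limited by counting error and library spread. Counts were fitted with edgeR 4.0.16 in R 4.3.3 (TMM, filterByExpr at a minimum count of 5, robust quasi-likelihood, 6 groups in 1 model, 16067 genes, common dispersion 0.0882), with Benjamini-Hochberg adjustment over all genes and a threshold of 0.05. Log2 fold changes are from that fit (prior count 0.125), with SE taken from the fold change and its F statistic. CPM are TMM-scaled.

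Named genes were up to 10 per direction with the largest state difference among called genes at a mean of 20 CPM whose libraries did not overlap in the state with the larger effect, up to 10 shared genes per direction by the adjusted p of the mean effect, up to 10 opposite genes by adjusted p, and genes called in both states. The rule also took up to 4 members of each list by p, and 16 further genes. Of the latter the study's text names all but Nodal, Lefty1 and Lefty2. Outside this rule, and chosen after their values were seen, were Jun, Mbnl2, Utf1, Snhg5, Rnaseh2a, Oplah, Gm13119 and Nkx1-2 (the 8 naive calls), Mirg, Meg3 and Rian as a cluster, Chac1, Mycn, Hmgcs1 and the MCM and metallothionein lists. Some genes that the rule selects are not reported here. The genes and lists were chosen with earlier results of these data known. Transcript lengths (GENCODE vM21) matched 94.1% of genes, and 10621 had a RefSeq promoter of 300 bases. Alternatives were other scalings, DESeq2 1.42.0, other filters, fewer groups, a replicate block and left-out libraries. The removal of the trend with length and of 2 libraries was added after the data were seen.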

Additional observations from a re-analysis of the deposited data

Results flagged for a closer look

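The test of the state difference itself, the effect of SA in transition minus that in naive cells, passed for 70 of the named genes, and each was noted because the same treatment had different effects in the 2 states. Those with a lower log2 ratio in transition were Zfp608 -6.18, Fgf15 -5.02, Dos -4.97, Lefty1 -4.64, Bcl11a -4.61, Efnb2 -4.34, Mirg -4.20, Fosl2 -4.20, RP23-204I16.3 -4.19, Gm16046 -4.13, Atf3 -4.09, Plekhm1 -4.07, Marveld1 -3.87, Jund -3.81. Smaller negative values, from the same fit and scale, were Zfhx3 -3.67, Pou3f1 -3.45, Jun -3.38, Stc2 -3.31, Chac1 -3.20, B230354K17Rik -3.10, Notch1 -3.08, Vldlr -2.93, Trim56 -2.85, Mycn -2.84, Grhl2 -2.81, Nodal -2.80, Zic2 -2.77, Zswim6 -2.75, Otx2 -2.42. The rest of the lower side was Bach1 -2.39, Srxn1 -2.36, Skil -2.25, Sesn2 -1.94, Mbnl2 -1.82, Txnrd1 -1.74, Keap1 -1.57, Meg3 -1.54, Dnmt3a -1.05, Srebf2 -0.80. On the higher side, log2 state differences were Gm24916 4.37, Khdc3 3.99, Gsta3 3.66, Mras 3.46, Gm525 3.25, Gm13580 3.11, Slc30a2 3.10, 2410137M14Rik 3.08, Mt1 3.05, Mt2 2.96, Tcl1 2.88, Tbx3 2.64, Cox20 2.25, Tfcp2l1 2.24, Tdh 2.23, Pccb 1.78. Below these came Ccnd3 1.73, Cdkn2a 1.70, Esrrb 1.60, Atp5h 1.57, Gstm1 1.37, Utf1 1.34, Mut 1.26, Hsd17b10 1.21, Ndufb4 1.15, Dbt 1.14, Mcm2 1.14, Ebp 1.08, Atp5j2 1.02, Ndufa3 0.82, Gsta4 0.73. No cause of these differences was tested.

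Single libraries stood far from the other 3 of their group, by Dixon's test for 4 samples, in 35 of 416 groups examined, and chance flags about 1 in 20 groups. In 2iL+SA replicate 3 there were 9, given as CPM: Bach1 124, Efnb2 6.60, Gm16046 76.5, Jund 951, Klf4 1058, Lactb 13.2, Pdzd4 3.85, Plekhm1 109, Txnrd1 535. In EpiLC replicate 3 there were 5, as CPM: Jund 424, Klf4 132, Mirg 153, Plekhm1 77, Zic2 88.7. The other 21 were spread over more libraries, again as CPM. In 2iL replicate 1 they were Bcl11a 1.64, Meg3 1646, Mt1 1582, Nkx1-2 8.6, Zfp608 0.546. For 2iL replicate 4 they were Dnmt3b 74.3, Skil 35.8. In 2iL+SA replicate 4 they were Fgf5 0.161, Gm13119 13.4. For EpiLC replicate 2 they were Esrrb 14.2, Gm13119 0.864, Zfp608 68.9. In EpiLC replicate 4 it was Gstm1 36.6. For EpiLC+SA replicate 1 they were Esrrb 173, Nodal 23.9, RP23-204I16.3 6.63. In EpiLC+SA replicate 2 they were Dnmt3b 629, Mras 5.10, Zfp608 4.89. For EpiLC+SA replicate 3 they were Ddx56 25.3, Nkx1-2 0.422.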

How the results depend on the processing

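Of 94 named genes with a called value, none changed sign in 2627 pairs of gene and alternative, 2557 of these kept the call and 70, in 12 genes, lost it. The alternatives reuse all or most of the same libraries, and a prior count of 2 cannot alter a call. The state difference, 2304 genes with 847 higher, was 3053 by DESeq2 (1108 higher), 2378 with DESeq2 size factors (817), 2380 with upper-quartile factors (764), 2394 at a minimum count of 10 (890), 1765 with no filter (592), 2037 with only the 4 groups compared (703), and 2650 (1018 higher) without the libraries under 3000000 counts. With the numbers as a replicate block it was 2316 (931 higher), and naive calls were 39. The labels do not say what a number stands for, and the deviations of same-numbered libraries from their group means correlated over 0.1 in 3 of 4 pairs of 2iL with 2iL+SA (-0.07 for replicate 3) and 3 of 4 of EpiLC with EpiLC+SA (0.06 for replicate 1). Of 8 libraries in each comparison, 6 and 8 correlated best with their own number, a hint from the data that numbers may be shared between SA and control. Without the 2 libraries that stand apart and with the length trend removed, 965 genes were lower against 1457.

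The 8 naive calls were the least stable count: 306 by DESeq2, 5 with its size factors, 4 with upper-quartile factors, 15 at a minimum count of 10, 37 with only the 4 groups, 23 with only the naive groups, 105 without libraries under 3000000 counts, 1 with the length trend removed, 3 without the 2 libraries and 5 with both. The limit of 3000000 counts removed EpiLC+SA+H replicate 1 as well as the 2 libraries. Under it, shared genes numbered 803 and same-way unequal genes 80. Naive only genes numbered 230 by DESeq2, 64 with no filter, 91 with the length trend removed and 73 with both. The cause of these shifts was not tested.

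Leaving out 1 library at a time gave 1603 to 2316 state differences (540 to 885 higher, 1063 to 1516 lower), 3332 to 5023 calls in transition, 0 to 61 in naive cells, 370 to 641 shared, 235 to 376 opposite, 1186 to 1765 transition only, 59 to 143 naive only and 17 to 46 same-way unequal genes. Higher state differences were 552 without 2iL replicate 2 and 540 without EpiLC+SA replicate 4. Naive calls were 61 without EpiLC replicate 3, 5 without EpiLC+SA replicate 3 and 0 to 3 without any 1 of the other libraries, except 10 without 2iL+SA replicate 4. Naive only genes were 59, 79 and 72 without 2iL replicates 2, 3 and 4, 79 without 2iL+SA replicate 3, 85 without EpiLC replicate 4, and 85 and 80 without EpiLC+SA replicates 2 and 4. Same-way unequal genes were 18, 21 and 17 without 2iL replicates 2, 3 and 4 and 20 without 2iL+SA replicate 2. A prior count of 2 altered only the size of fold changes, most for genes near 0 in naive cells. At this depth a fall of Fgf5, Fgf15 or Zfp608 in naive cells was not detectable.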
